A study of Mus musculus with 22 samples.

Results

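Enterocytes and enteroendocrine cells (EECs) of the mouse colon crypt, a pair of mature cell types sorted from the same epithelium, were compared across all genes. The 7 libraries were chosen by their titles, 5 of enterocytes and 2 of EECs, out of 22 RNA-seq libraries from 6 sorted crypt populations. All 7 came from the colons of untreated wild type C57BL/6N male mice aged 5 to 7 weeks, and the groups differed in the sort gate. Enterocytes were sorted as live Cd31-, Cd45-, Epcam+, Cd44low/-, Cd24- cells, and EECs by the same gate but Cd24+. The label of EECs names no gate on Kit, which the study used as the sorting marker of tuft cells, the other Cd24-bearing population. Sorted cells were pooled to at least 2500 a sample and RNA was pooled again to reach 1 ng for each library, so 1 library does not stand for 1 mouse. P-values therefore measure spread between libraries and not between mice. That spread was estimated over all 22 libraries of the 6 populations, not over the 7 alone.

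Enterocytes line the colon surface, where they take up salt, water and the short-chain fatty acids that bacteria make, and they carry a brush border of microvilli. EECs are scattered secretory cells that store hormones in dense-core granules and release them when calcium enters the cell. The commonest colonic type is the enterochromaffin cell, which makes serotonin from tryptophan, and other EECs release peptides such as the glucagon-like peptides, peptide YY and somatostatin.

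The 2 EEC libraries stood apart from each other. Across genes, EEC 1 and EEC 2 correlated at a Spearman's rho of 0.696, against 0.921 to 0.958 among the 5 enterocyte libraries. The counts assigned to genes were 4122122 in EEC 1 and 13132315 in EEC 2, and 5950619 to 12966128 in enterocytes. Background was taken as the summed counts of 1522 olfactory, vomeronasal, trace amine receptor and hair keratin-associated genes, which colon epithelium is not known to use. It came to 6999 CPM (counts scaled to a common library total) in EEC 1 and 548 in EEC 2. Enterocyte 1 to 3 had 3864, 3077 and 3902 CPM, and Enterocyte 4 and 5 had 773 and 1319. The group means, 3773 and 2587 CPM, hide this spread. The main calls are therefore also given with each EEC library left out in turn. With 1 library left out, the other EEC library is assumed to vary as the libraries of the other populations do.

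A gene was called when edgeR's quasi-likelihood test gave a Benjamini-Hochberg adjusted p below 0.01 and the gene averaged at least 50 normalized counts over the 22 libraries. Normalized counts are counts scaled for library size and composition. Of 22781 genes tested, 657 were called (2.88%), of which 394 were higher in EECs (1.73%) and 263 were higher in enterocytes (1.15%). The median log2 fold change, EECs minus enterocytes throughout, was 2.49 among the genes higher in EECs, -2.48 among those higher in enterocytes and 0.02 over all genes tested. In 361 of the 394 genes both EEC libraries lay above all 5 enterocyte libraries, and in 263 of the 263 both lay below them. Over all genes tested, called or not, both EEC libraries lay above the enterocytes in 2008 (8.81%) and below them in 2872 (12.6%). With counts scaled by library totals alone, 494 genes were higher in EECs and 835 higher in enterocytes, which moved the share higher in EECs from 60.0 to 37.2%. Calls differed with the EEC library used: 232 of the 657 were also called without EEC 1 and without EEC 2, 121 of them higher in EECs (0.531% of genes tested) and 111 higher in enterocytes (0.487%). Without EEC 1 there were 1058 genes higher in EECs and 532 higher in enterocytes, and without EEC 2 there were 159 and 1464. Within libraries of like background, that is EEC 1 against Enterocyte 1 to 3 and EEC 2 against Enterocyte 4 and 5, 655 of the 657 called genes had the same direction in both comparisons. That comparison was chosen after the data were seen, and for the genes whose groups do not overlap its outcome is fixed by that fact, so it is no check of them.

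**Figure D1:**
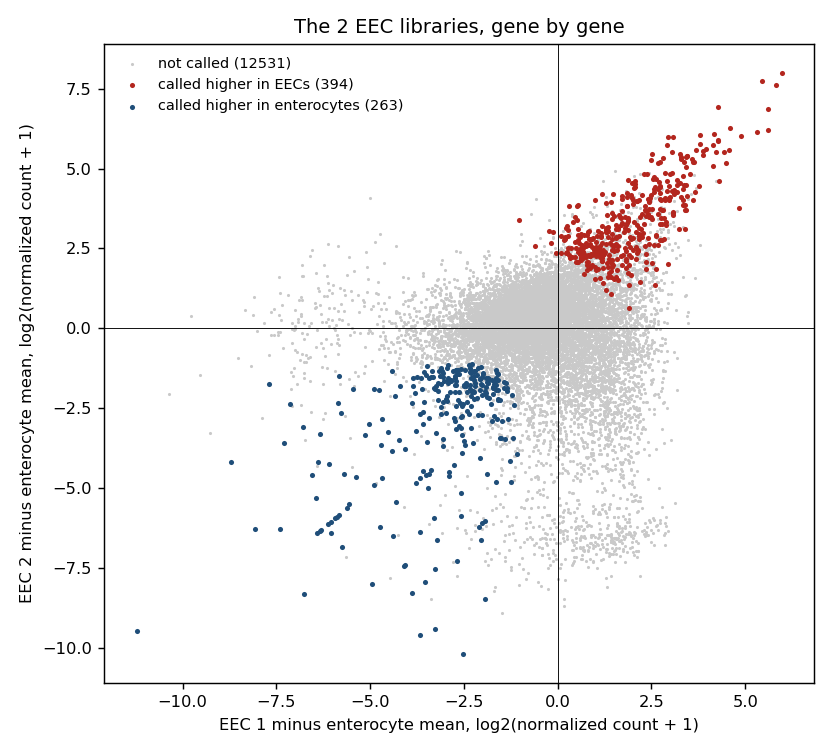
Difference of EEC 1 (x axis) and of EEC 2 (y axis) from the enterocyte mean, in log2(normalized count + 1), for 13188 genes with a mean of at least 50 normalized counts. Each point is a gene. The 394 genes called higher in EECs (red) and the 263 called higher in enterocytes (blue) lie mostly on opposite sides of 0, while uncalled genes (grey) spread toward low values in 1 EEC library at a time.

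The largest differences in favour of EECs included Tph1 of serotonin synthesis and granin genes. Tryptophan hydroxylase 1 (Tph1, chromosome 7), which makes the first step of peripheral serotonin synthesis, stood at 23483 normalized counts in EEC 1 and 114316 in EEC 2, and at 1179, 624, 332, 446 and 417 in Enterocyte 1 to 5. Its log2 fold change was 6.85 ± 0.75 (SE, adjusted p = 1.36e-07). Both EEC libraries were far above every enterocyte library, and the call held without either. The vesicular monoamine transporter Slc18a1, which loads serotonin into granules, showed 2517 and 9702 normalized counts in EECs and 313, 219, 298, 168 and 186 in enterocytes (log2 fold change 4.69 ± 0.45, adjusted p = 1.55e-08). Again the groups did not overlap.

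Of 13 tested genes for the synthesis, storage and clearance of serotonin, 5 rose in EECs and none fell. Besides Tph1 and Slc18a1 these were Ddc, the decarboxylase of the second step, and Gch1 and Qdpr, which make and recycle the tetrahydrobiopterin cofactor. Ddc stood at 1012 and 4395 in EECs against 461 to 1312 in enterocytes, so EEC 1 lay within the enterocyte range (log2 fold change 1.88 ± 0.39). Gch1 stood at 224 in EEC 1, also within the enterocyte range of 205 to 315, and at 1977 in EEC 2. The calls of Ddc, Gch1 and Qdpr were lost without EEC 2. Slc18a2, the transporter of neurons, read 284 and 420 in EECs against 149 to 241 in enterocytes and was not called. The reuptake transporter Slc6a4 read 302 and 63.1 in EECs against 190 to 497 in enterocytes and was not called either. Maoa, which breaks serotonin down, stood at 347 in EEC 1 and 9708 in EEC 2 against 3719 to 10626 in enterocytes. The counts of this list moved with the processing. With DESeq2, its size factors or library totals, 1 member was higher in enterocytes. Without Enterocyte 2, 3 or 5, 3 members were higher in EECs. The median log2 fold change of this list was -0.04, close to that of all genes. It turned to 0.31 with DESeq2's size factors and 0.18 with library totals, where all genes tested had 0.22 and 0.04.

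The granin and prohormone processing list held the largest share of called genes, with 13 of 17 tested genes higher in EECs, none higher in enterocytes and a median log2 fold change of 4.38. Chromogranin A (Chga, chromosome 12), a granule matrix protein, reached 207151 and 717106 normalized counts in EEC 1 and EEC 2, against 8561, 3768, 2327, 3338 and 2719 in Enterocyte 1 to 5. Chromogranin B (Chgb) reached 361992 and 869163, against 16556, 7579, 3793, 5882 and 8349. Their log2 fold changes were 6.80 ± 0.88 for Chga and 6.19 ± 0.83 for Chgb, and both calls held without either EEC library. Enterocyte 1 was the highest enterocyte library for both genes.

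Pcsk1n (proSAAS, the inhibitor of prohormone convertase 1) had the largest called increase of any named gene, at 5151 and 20639 normalized counts in EECs against 167, 88.3, 49.7, 79.8 and 56.8 in enterocytes (log2 fold change 7.19 ± 0.74, adjusted p = 3.32e-08). Pcsk1, the convertase itself, stood at 723 and 2137 against 183, 159, 98.2, 99.2 and 145 (log2 fold change 3.39 ± 0.40). Scg3, Resp18, Ptprn2 and Cadps, which belong to granules or prime them for release, rose by 4.58, 5.46, 2.96 and 3.99 on the log2 scale. With Chga and Chgb, these 6 genes kept their calls without either EEC library. Scg5, Vgf, Cpe, Pam and Ptprn were also called, with log2 fold changes of 4.38, 5.34, 4.68, 2.11 and 5.05, and lost the call without EEC 2. The 4 genes that were not called included Pcsk2, at 255 and 30.3 in EECs against 51.3 to 178 in enterocytes. Scg2 was another, at 101 in EEC 1 and 0 in EEC 2 against 46.8 to 105 in enterocytes. Pcsk2 and Scg2 averaged 48.4 and 31.9 over the 22 libraries, below the 50 that a call needs. The summed counts of the list were 594417 and 1670423 in EECs and 9732 to 29817 in enterocytes. In the 15 libraries of the other 4 populations the sum was 2100 to 35461.

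**Figure D2:**
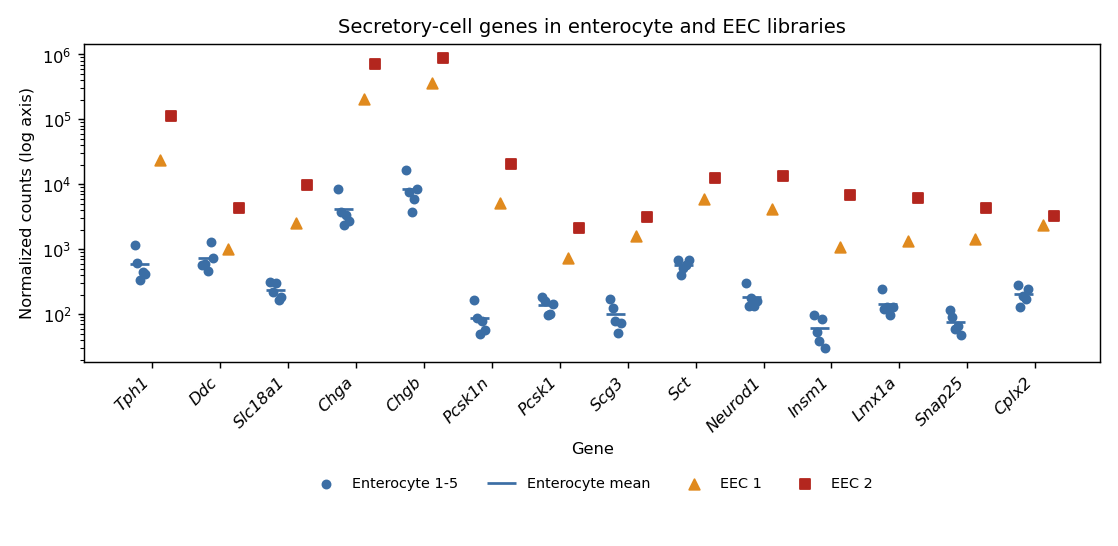
Normalized counts (log axis) of 14 genes of serotonin synthesis, granules, peptide hormones, regulators and exocytosis in each library. Blue points are Enterocyte 1 to 5 with their mean as a bar, the triangle is EEC 1 and the square is EEC 2, and EEC 2 is the higher EEC library for all 14 genes. For Ddc alone, EEC 1 (1012) falls below the highest enterocyte library (1312).

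Peptide hormone genes did not move as a block. Of 23 tested, 2 rose in EECs, 1 fell and 20 were not called, with a median log2 fold change of 0.24, and 8 of the 23 reached a mean of 50 normalized counts. Secretin (Sct) stood at 5948 and 12405 normalized counts in EECs against 684, 396, 507, 569 and 676 in enterocytes (log2 fold change 4.02 ± 0.52, adjusted p = 2.38e-06), and this call held without either EEC library. Amylin (Iapp) stood at 663 and 1332 in EECs against 10.3 to 38.1 in enterocytes (log2 fold change 5.07 ± 1.01), and lost its call without EEC 2.

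Proglucagon (Gcg), the precursor of the glucagon-like peptides in L cells, went the other way. It had 0 counts in EEC 1 and 2 counts in EEC 2, which is 0 and 2.43 normalized counts, against 4871, 2534, 1159, 2942 and 1876 in Enterocyte 1 to 5. The enterocyte mean was 2206 times the EEC mean, with a 95% counting interval of 611 to 18213, and the adjusted p was 0.00136. The gene was not called when either EEC library was left out, although all 5 enterocyte libraries lay above both EEC libraries. A further pair of gut peptides had the same order without passing the test. Peptide YY (Pyy) read 32.5 and 88.6 in EECs against 172 to 946 in enterocytes (adjusted p = 0.105), and neurotensin (Nts) read 3.62 and 155 against 705 to 2211 (adjusted p = 0.0899).

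Somatostatin (Sst), the product of D cells, read 385 and 511 normalized counts in EECs against 16.1, 45.9, 34.7, 9.12 and 12.5 in enterocytes. The groups did not overlap, but with an adjusted p of 0.0181 the gene was not called. Substance P precursor (Tac1), an enterochromaffin peptide, read 90.4 in EEC 1 and 807 in EEC 2 against 53.9 to 151 in enterocytes (adjusted p = 0.245). Insl5 and Cck read 65.1 and 186 in EEC 1 and 0 in EEC 2, against 31.2 to 196 and 50.8 to 183 in enterocytes. By counting error alone, a count of 0 in EEC 2 allows up to 3 counts of its 13132315. Of the markers of enterochromaffin cells, Tph1, Slc18a1 and Ddc were thus called and Tac1 was not. Of the markers of other EECs (Gcg, Pyy, Sst, Cck, Nts, Insl5 and Sct), Sct alone was called higher in EECs. In bulk libraries, fewer cells of a type and less RNA per cell cannot be told apart.

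Of 25 tested transcription regulators of EEC fate, 11 rose in EECs, none fell and 14 were not called, with a median log2 fold change of 3.05. Of the 11, 8 were also called without either EEC library. Neurod1, a basic helix-loop-helix factor of endocrine differentiation, stood at 4220 and 13397 normalized counts in EECs against 301, 132, 180, 136 and 158 in enterocytes (log2 fold change 5.60 ± 0.55, adjusted p = 1.89e-08). Insm1, a zinc finger repressor of endocrine cells, stood at 1085 and 6891 against 96.5, 53.9, 38.1, 83.3 and 30.5 (log2 fold change 6.04 ± 0.66). Lmx1a, a LIM-homeodomain factor of enterochromaffin cells, stood at 1322 and 6067 against 98.1 to 241 (log2 fold change 4.69 ± 0.61). In each of these the lower EEC library was above the highest enterocyte library.

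The other regulators called without either library were St18 and Myt1, related zinc finger factors (log2 fold changes 3.59 and 4.52), Sox4 (3.57), Prox1 (3.05) and the nucleosome-binding protein Hmgn3 (5.61). Foxa1, Rfx3 and Peg3 rose by 2.00, 1.58 and 4.65 and lost the call without EEC 2. Fev read 195 and 1321 in EECs against 35.4 to 60.0 in enterocytes (adjusted p = 0.0187), and Rfx6 read 846 and 1596 against 73.0 to 165 (adjusted p = 0.016). Nkx2-2 read 248 and 743 against at most 80.4 (adjusted p = 0.0215). None of these 3 overlapped between groups, and none passed the threshold. Neurog3, which marks EEC progenitors, read 45.2 in EEC 1 and 0 in EEC 2 against 25.2 to 45.3 in enterocytes.

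Of 30 tested genes of regulated exocytosis, the machinery of calcium-triggered release, 12 were higher in EECs, 1 was higher in enterocytes and 17 were not called, with a median log2 fold change of 1.78. Cplx2, a complexin that clamps fusion, had the smallest adjusted p of all genes higher in EECs, 6.47e-09, at 2392 and 3211 normalized counts in EECs against 281, 130, 192, 169 and 241 in enterocytes. Snap25, the membrane SNARE of release sites, stood at 1416 and 4354 against 47.1 to 118 (log2 fold change 5.24 ± 0.68). The calcium sensor Syt7 stood at 4527 and 17350 against 727 to 1179 (log2 fold change 3.50 ± 0.40). The calls of these 3 held without either EEC library. Stx1a, Syn1, Syp, Syt11, Rab3c, Rims2, Rph3al, Unc13a and Stxbp5l were called and lost the call without EEC 2. The granuphilin gene Sytl4 was the exception, at 59.7 and 8.49 in EECs against 153 to 339 in enterocytes (log2 fold change -2.82 ± 0.60).

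Among channels that make a cell excitable, 8 of 31 tested genes were higher in EECs, none was higher in enterocytes and 23 were not called, with a median log2 fold change of 1.19. The P/Q-type calcium channel Cacna1a stood at 1839 and 8552 normalized counts in EECs against 746, 453, 548, 354 and 372 in enterocytes (log2 fold change 3.39 ± 0.42). Its auxiliary subunit Cacna2d1 stood at 1607 and 6107 against 231, 177, 166, 103 and 94.2 (log2 fold change 4.65 ± 0.43), and the potassium channel Kcnc1 at 1889 and 5707 against 48.5 to 224. These 3 were called also without either library. The T-type channel Cacna1h (log2 fold change 3.83), the sodium channel Scn3a (3.65), and Cacnb3, Kcnh6 and Trpm2 were called and lost the call without EEC 2. Scn3a was not called by DESeq2 (adjusted p = 0.0828).

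Among 27 genes that neurons use for their cytoskeleton or RNA binding, 7 rose and none fell, with a median log2 fold change of 0.97. Map1b, a microtubule-associated protein, stood at 8050 and 17069 normalized counts in EECs against 195 to 641 in enterocytes (log2 fold change 4.97 ± 0.56), and the splicing regulator Celf3 at 2305 and 7312 against 87.8 to 214 (log2 fold change 4.88 ± 0.59). Nefm, a neurofilament gene, was called with a log2 fold change of 3.29, and this call was lost without either library and by DESeq2. Tubb3, Stmn2 and Uchl1, common markers of neurons, averaged 11.4, 19.9 and 14.8 normalized counts over the 22 libraries. As a call needs 50, they could not be called. Of the 27 genes, 16 reached that mean. Tubb3 read 39.8 in EEC 1 and 0 in EEC 2 against 6.84 to 58.9 in enterocytes.

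Of 32 receptors for hormones and luminal signals, 4 rose in EECs and none fell, with a median log2 fold change of 0.73, and all 4 calls were lost without EEC 2. The short-chain fatty acid receptor Ffar2 stood at 466 and 698 normalized counts in EECs against 159, 110, 86.6, 128 and 192 in enterocytes (log2 fold change 2.11 ± 0.42). The receptors for glucagon-like peptide (Glp1r) and somatostatin (Sstr1) stood at 759 and 2725, and at 772 and 4361, against 38.8 to 143 and 59.5 to 224 in enterocytes. The galanin receptor Galr1 was the other called gene (log2 fold change 3.99), and it was not called by DESeq2. The mechanosensitive channel Piezo2 read 1757 and 1807 in EECs against 182 to 499 in enterocytes, without overlap and with an adjusted p of 0.0521. The irritant receptor Trpa1 read 36.2 and 6.07 against 27.4 to 71.6. Of the 32 receptors, 18 reached the mean of 50 normalized counts that a call needs.

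Secreted ligands of epithelial signalling differed in both directions, with 3 of 30 tested genes higher in EECs, 4 higher in enterocytes and a median log2 fold change of 0.30. Kit ligand (Kitl), which signals to Kit-bearing cells, stood at 206 and 237 normalized counts in EECs against 797, 1030, 702, 1475 and 1371 in enterocytes (log2 fold change -2.28 ± 0.39, adjusted p = 1.54e-04). Pdgfa, a mesenchymal growth factor, stood at 141 and 172 against 722, 902, 802, 1403 and 914 (log2 fold change -2.60 ± 0.44). Endothelin 1 (Edn1) and Bmp3 fell by 4.23 and 3.01 on the log2 scale. All 4 calls held without either EEC library. In EECs the Notch ligand Jag2 was higher, at 504 and 590 against 59.5 to 163 (log2 fold change 2.37 ± 0.50), also without either library. Bmp2 (log2 fold change 2.33) and Vegfa (2.37) were called higher in EECs and lost the call without EEC 2. Kit itself read 667 and 654 in EECs against 291 to 851 in enterocytes.

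The transport genes called between the groups were all higher in enterocytes. Of 35 tested nutrient, organic anion and drug transporters, 4 were called, each also without either EEC library, and the median log2 fold change was -0.76. Slc5a8, which takes up short-chain fatty acids with sodium, stood at 77.7 and 688 normalized counts in EECs against 2874, 4361, 2207, 9783 and 5538 in enterocytes (log2 fold change -3.69 ± 0.66, adjusted p = 3.31e-04). Slc6a14, an amino acid transporter, stood at 208 and 846 against 3030, 6857, 4858, 13617 and 10399 (log2 fold change -3.87 ± 0.66). The iron exporter Slc40a1 stood at 152 and 1.21 against 829 to 2282, and the sodium-glucose transporter Slc5a1 at 448 and 501 against 1930 to 4308. The groups did not overlap for any of the 4.

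Of 38 tested genes for electrolyte, acid-base and water transport, 4 were higher in enterocytes and none was higher in EECs, with a median log2 fold change of -0.70. Without EEC 2, 16 were higher in enterocytes, and without EEC 1, 7 were. The water channel Aqp4 stood at 342 and 169 normalized counts in EECs against 2417, 6338, 2308, 5855 and 7664 in enterocytes (log2 fold change -4.27 ± 0.60, adjusted p = 9.76e-06). Clca4a, a surface epithelial protein of the chloride channel regulator family, stood at 351 and 419 against 1685 to 2415 (log2 fold change -2.48 ± 0.44). Those 2 calls held without either EEC library. The proton pump Atp12a (log2 fold change -3.52) and the potassium channel subunit Kcne3 (-2.33) were called and lost the call without EEC 2. The glutamate transporter Slc1a1, outside these lists, was among the 5 smallest adjusted p of genes higher in enterocytes, at 77.7 and 36.4 against 572 to 1589 (log2 fold change -4.10 ± 0.55), also without either EEC library.

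**Figure D3:**
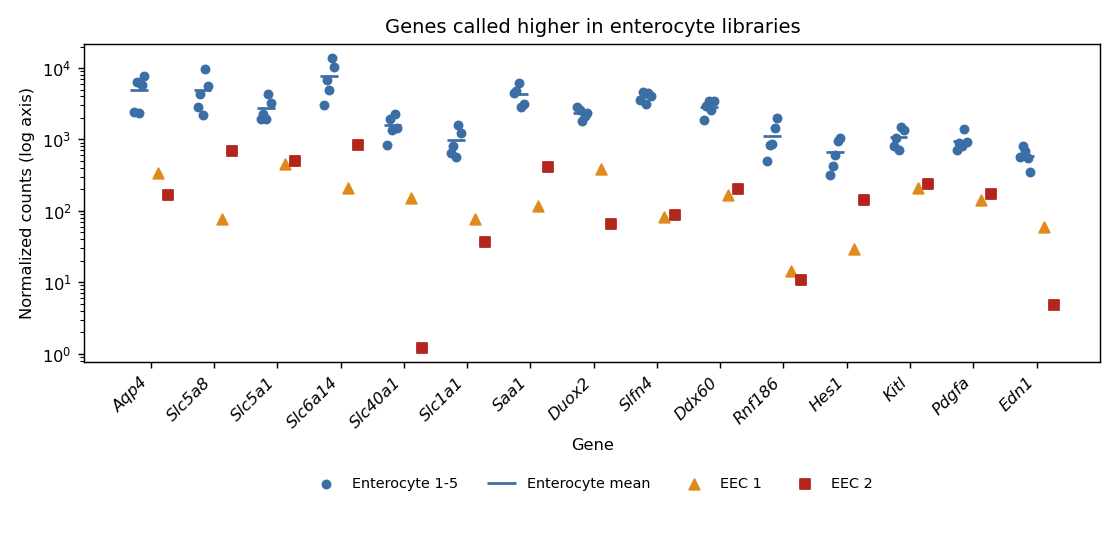
Normalized counts (log axis) of 15 genes called higher in enterocytes, for transport, defence, Notch response and secreted ligands, in each library. Blue points are Enterocyte 1 to 5 with their mean as a bar, the triangle is EEC 1 and the square is EEC 2. Both EEC libraries lie below all 5 enterocyte libraries for every gene shown, and the order of the 2 EEC libraries changes from gene to gene.

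Of 31 tested for antimicrobial defence, mucosal immunity and the interferon response, 8 were called, all higher in enterocytes, with a median log2 fold change of -1.70. Serum amyloid A1 (Saa1) stood at 116 and 406 normalized counts in EECs against 4438, 4749, 6169, 2855 and 3128 in enterocytes (log2 fold change -4.02 ± 0.78). Duox2, the oxidase that makes hydrogen peroxide at the surface, stood at 389 and 64.3 against 2803, 2553, 1816, 2156 and 2362 (log2 fold change -3.38 ± 0.56). Those calls, and those of Ifit1bl1 (log2 fold change -3.36) and of the chemokine Cx3cl1, at 244 and 226 against 726 to 1348, held without either EEC library. The antibacterial lectins Reg3b and Reg3g, at 9.04 and 37.6 and at 59.7 and 0 in EECs against 392 to 1420 and 444 to 941 in enterocytes, were called but lost the call without EEC 1 and without EEC 2 respectively. Oas1a and Ccl28 lost theirs without EEC 1. Reg3b and Reg3g, like the Oas1 genes, are close copies of each other, so their counts are less certain. The polymeric immunoglobulin receptor Pigr, an abundant enterocyte gene, read 5836 and 31877 against 28855 to 95526 and was not called.

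Of the 5 genes higher in enterocytes with the smallest adjusted p, 3 are interferon-induced. Slfn4 stood at 81.4 and 86.2 normalized counts in EECs against 3527, 4560, 3149, 4506 and 4029 in enterocytes (log2 fold change -5.56 ± 0.67, adjusted p = 6.59e-07). Ddx60, a helicase of antiviral sensing, stood at 166 and 204 against 1872, 2946, 3495, 2622 and 3456 (log2 fold change -3.96 ± 0.52). Oas1g, a copy of the oligoadenylate synthetase gene, had 2 counts in the EEC libraries, at 0 and 2.43 normalized counts against 183 to 370, a ratio of 228 with a counting interval of 63.1 to 1881. The first of the 5 was Rnf186, a ubiquitin ligase of colon epithelium, at 14.5 and 10.9 against 500, 833, 872, 1463 and 1999 (log2 fold change -6.49 ± 0.61, adjusted p = 1.07e-08). All 4 calls held without either EEC library.

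Promoters of genes that moved together were read from RefSeq (GRCm38.p6, the assembly that mm10 names), as windows of 300 bases from 250 before to 50 after each transcription start. Of the called genes, 291 of the 394 higher in EECs and 200 of the 263 higher in enterocytes had such a window. On either strand, the cyclic AMP response element, read as the half-site TGAC followed directly by GTCA, was found in 12 of the 291 (4.12%) and 1 of the 200 (0.5%), against 2.67% of 16762 tested genes with a window and 2.03% of all 27025 genes with one. The core of the interferon response element, read as GAAA, any 2 bases and GAAA, was found in 13 of the 291 (4.47%) and 19 of the 200 (9.5%), against 3.93% of tested genes and 3.99% of all. The E-box CAGATG, a letter string that NeuroD factors can bind, was found in 16.5% and 18%, against 16.6% and 19.2%. These matches are descriptions of letters and not of binding. Shown first are a granin and a convertase that were raised in EECs, Chgb at chr2:132781392-132781691 and Pcsk1 at chr13:75089607-75089906, both on the plus strand, with the cyclic AMP response element in capitals from base -72 and base -78.
Chgb: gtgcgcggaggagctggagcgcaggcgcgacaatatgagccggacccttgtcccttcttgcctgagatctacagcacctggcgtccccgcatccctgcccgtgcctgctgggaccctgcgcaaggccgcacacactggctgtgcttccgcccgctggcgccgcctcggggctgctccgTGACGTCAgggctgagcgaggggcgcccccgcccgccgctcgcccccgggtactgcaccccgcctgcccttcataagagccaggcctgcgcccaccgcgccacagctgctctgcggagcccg
Pcsk1: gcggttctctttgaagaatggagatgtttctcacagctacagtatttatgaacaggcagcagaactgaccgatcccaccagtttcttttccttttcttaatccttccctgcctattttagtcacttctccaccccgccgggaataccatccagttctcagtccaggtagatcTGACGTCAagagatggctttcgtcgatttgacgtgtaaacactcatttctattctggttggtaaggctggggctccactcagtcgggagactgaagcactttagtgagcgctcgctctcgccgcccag

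Shown next are promoters of 2 interferon-induced genes that were higher in enterocytes, Oas1g at chr5:120887564-120887863 on the minus strand and Ddx60 at chr8:61927837-61928136 on the plus strand, with matches to the interferon response element core in capitals. Oas1g holds 2 overlapping matches, from bases -18 and -12, and Ddx60 holds 2 separate matches, from bases -53 and -19.
Oas1g: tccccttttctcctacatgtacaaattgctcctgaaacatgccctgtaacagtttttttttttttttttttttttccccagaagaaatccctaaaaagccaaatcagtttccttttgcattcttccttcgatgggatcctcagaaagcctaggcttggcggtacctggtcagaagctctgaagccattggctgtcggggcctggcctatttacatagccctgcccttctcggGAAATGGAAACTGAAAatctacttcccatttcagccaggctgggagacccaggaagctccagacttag
Ddx60: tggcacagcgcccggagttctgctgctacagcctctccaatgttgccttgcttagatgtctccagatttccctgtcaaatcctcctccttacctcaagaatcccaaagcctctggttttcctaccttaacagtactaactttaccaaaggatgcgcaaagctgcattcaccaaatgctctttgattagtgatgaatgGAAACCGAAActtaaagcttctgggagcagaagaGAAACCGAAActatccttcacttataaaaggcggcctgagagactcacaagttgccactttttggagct

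Most genes of the absorptive programme were not called, and the EEC libraries differed in them. Car1, the abundant colonic carbonic anhydrase, read 3466 normalized counts in EEC 1 and 79382 in EEC 2, against 37907, 35596, 25141, 35674 and 47977 in Enterocyte 1 to 5. Slc26a3, the chloride-bicarbonate exchanger, read 360 and 4439 against 3059 to 4939. For Car1 and Slc26a3, EEC 1 was thus below every enterocyte library and EEC 2 was within or above their range. Aqp8, Guca2a and Ceacam1 had the same order. Car4 was below every enterocyte library in both EEC libraries, at 139 and 1927 against 3491 to 6591 (edgeR adjusted p = 0.0109). Slc51a read 400 in EEC 1, within the enterocyte range of 369 to 720, and 143 in EEC 2, below it. Villin (Vil1), the actin bundler of microvilli, read 1464 and 10514 against 2917 to 8843. The log2 fold change of Car1 was 0.18 ± 0.65, but 1.14 without EEC 1 and -3.40 without EEC 2, where it was called.

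The same was true of whole lists. Of 38 tested brush border genes, 1 (Anpep, an aminopeptidase, not called without EEC 1) was higher in enterocytes and none in EECs, with a median log2 fold change of -0.51. Without EEC 2, 14 were higher in enterocytes, and without EEC 1, 4 were higher in EECs and 1 in enterocytes. Of 41 genes of fatty acid oxidation and ketogenesis none was called, against 15 higher in enterocytes without EEC 2. Of 78 nuclear genes of the respiratory chain, 3 (Ndufb2, Ndufb8 and Ndufs8) were higher in enterocytes, against 33 without EEC 2 and 1 without EEC 1. For 43 detoxification genes these counts were 2 (Sult1c2 and Gsto1), 16 and 3. The median log2 fold changes of these lists were -0.45, -1.11 and -0.76. No gene was called among 4 for guanylin peptides and their receptor or 23 for antigen presentation, with medians of -0.85 and -0.51. Without EEC 1, 1 guanylin gene and 3 antigen presentation genes were higher in enterocytes, and without EEC 2 none and 5 were. All genes tested had a median log2 fold change of -0.11 without EEC 2 and -0.54 without EEC 1. The brush border genes had -1.51 and -0.01. Over tested genes averaging at least 50 normalized counts, as all 38 brush border genes did, the medians were -0.44 and 0.13. Summed counts of the brush border list were 52109 in EEC 1 and 217937 in EEC 2, against 131823 to 224047 in enterocytes. Background, which was the highest in EEC 1 and the lowest in EEC 2, moved with this difference, and its part in the result was not tested.

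**Figure D4:**
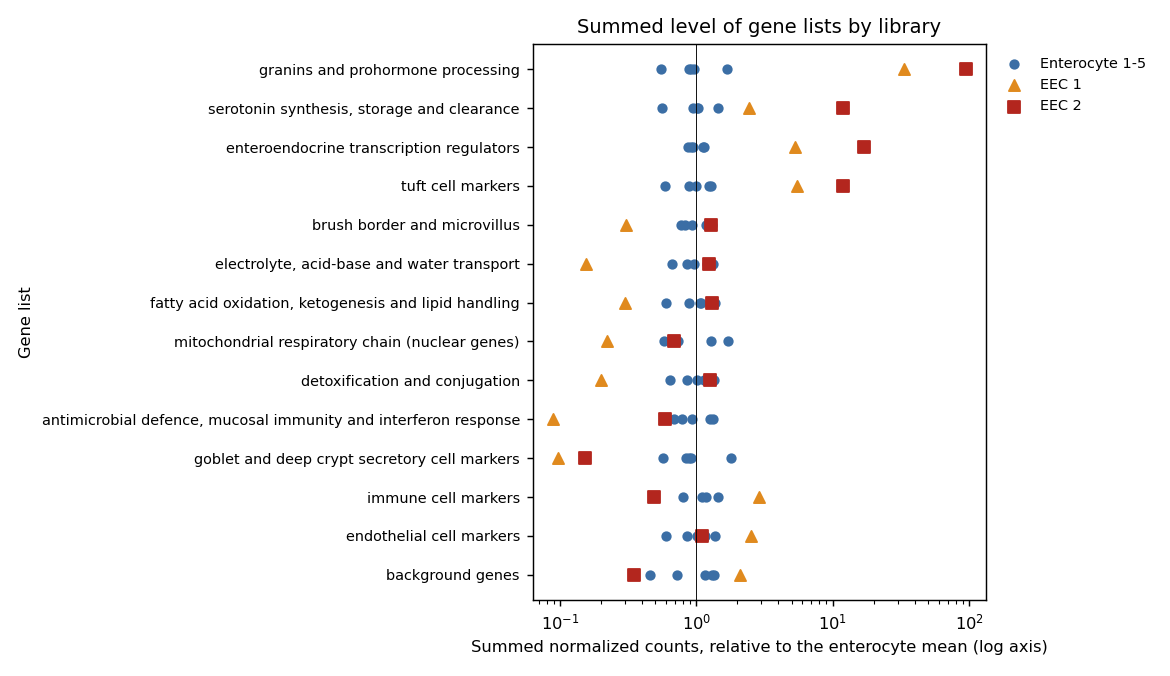
Summed normalized counts of 13 gene lists and of the background genes in each library, divided by the mean of the 5 enterocyte libraries (log axis). Blue points are Enterocyte 1 to 5, triangles EEC 1 and squares EEC 2. Both EEC libraries lie above the enterocytes for granins, serotonin genes, endocrine regulators and tuft markers, and EEC 1 alone lies below them for brush border, transport, lipid and detoxification genes.

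Regulators of the absorptive lineage were mostly not called, with 2 of 39 tested genes higher in enterocytes, 1 higher in EECs and a median log2 fold change of -0.57. Without EEC 2, 14 were higher in enterocytes and the median was -1.56, and without EEC 1, 3 were. DESeq2 called 8 higher in enterocytes. Hes1, the Notch-induced repressor of secretory fate, stood at 28.9 and 140 normalized counts in EECs against 320, 419, 604, 939 and 1041 in enterocytes (log2 fold change -2.95 ± 0.54, adjusted p = 3.81e-04), and its call held without either EEC library. Nr5a2, a nuclear receptor, stood at 257 and 250 against 538 to 1573 (log2 fold change -2.06 ± 0.46) and was not called with either library alone. Id2, which blocks basic helix-loop-helix factors, was the gene higher in EECs, at 513 and 1876 against 93.6 to 132 (log2 fold change 3.32 ± 0.43), also without either EEC library. Hnf4a, Cdx2 and Klf4 were not called. Of 27 keratin and junction genes, with a median of -0.74, Cldn4 and Krt7 rose in EECs, by 2.03 and 2.71 on the log2 scale, and lost the call without EEC 2, where 12 others were higher in enterocytes. Krt20, taken as a marker of surface enterocytes, read 16893 and 43395 in EECs against 8049 to 12343 in enterocytes, without overlap and with an adjusted p of 0.07.

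Among 24 proliferation genes, with a median log2 fold change of -0.69, the cell cycle inhibitor Cdkn1c rose in EECs, at 604 and 848 normalized counts against 54.1, 68.8, 45.1, 53.6 and 66.5 in enterocytes (log2 fold change 3.65 ± 0.36, adjusted p = 1.89e-08), also without either EEC library. Top2a and Ccnb1 were higher in enterocytes, with log2 fold changes of -2.02 and -2.92, and lost the call without EEC 2. Without EEC 1, 11 of the 24 were higher in enterocytes and the median was -1.58, and without EEC 2 none was. Mki67 read 1168 and 819 in EECs against 1568 to 9412 in enterocytes (adjusted p = 0.0121). No gene of 19 stem cell and Wnt target markers was called, and their median was -0.13. It turned to 0.26 with DESeq2's size factors and 0.12 with library totals, where all genes tested had 0.22 and 0.04. Of 18 prostaglandin and leukotriene genes, with a median of -0.20, the degrading enzyme Hpgd was higher in enterocytes (log2 fold change -1.91 ± 0.41), also without either library. Pla2g4a, which releases their fatty acid precursor, was higher in enterocytes too (-2.33) and lost the call without EEC 2. Alox5 and Alox5ap, which together start leukotriene synthesis, were higher in EECs (2.00 and 3.17) and lost the call without EEC 2.

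**Figure D5:**
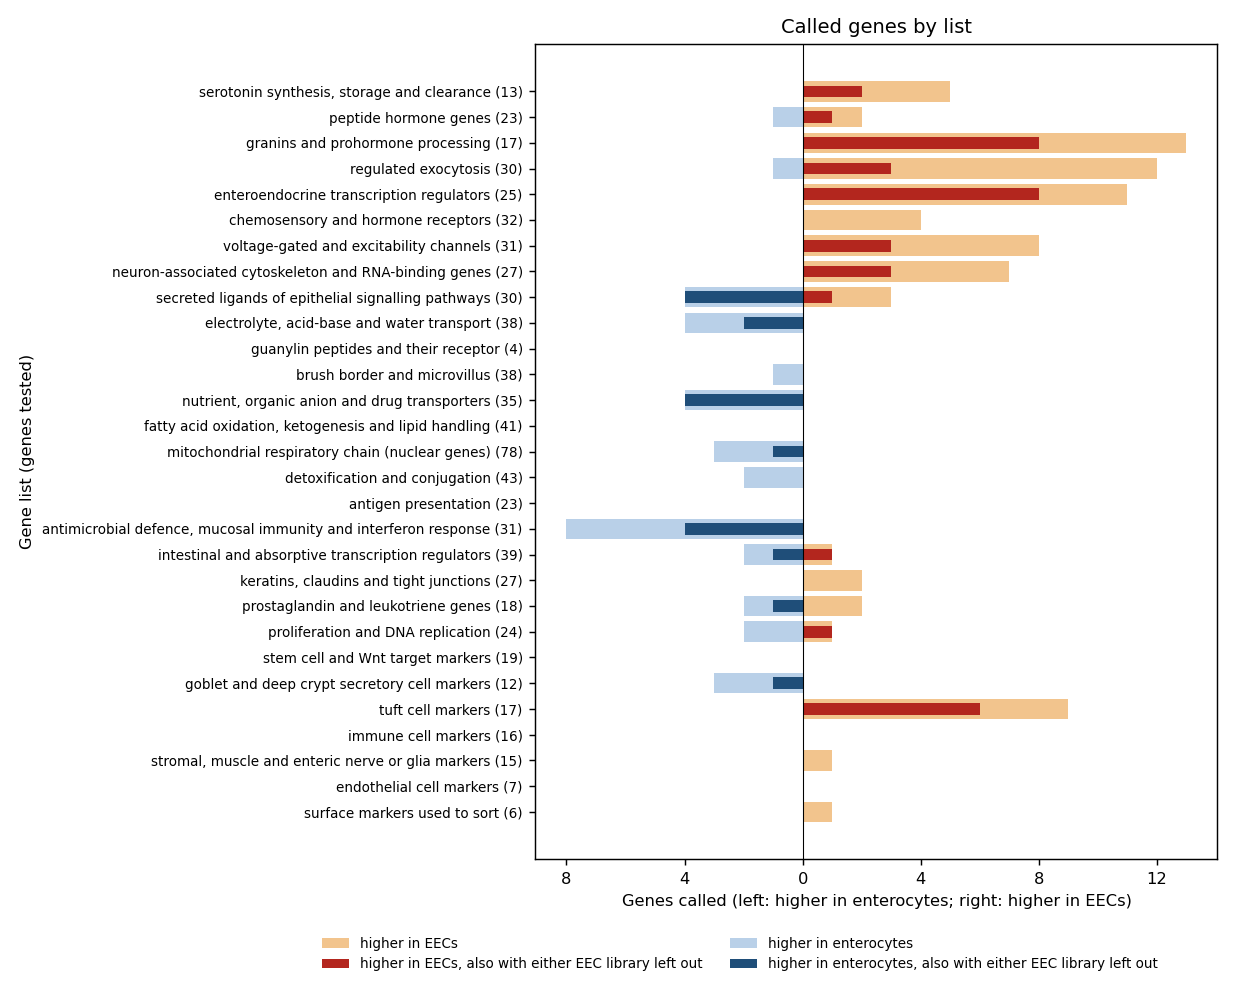
Genes called in each of 29 lists, with the number tested in brackets after the list name. Bars to the right count genes higher in EECs and bars to the left genes higher in enterocytes, and the dark inner bars count those also called with either EEC library left out. Granins and prohormone processing (13 genes) is the longest bar to the right and antimicrobial defence (8 genes) the longest to the left.

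Markers of other cell types were examined in the same way. Cd24a, the gene of the surface protein that the gate used, stood at 4066 and 15026 normalized counts in EECs against 513 to 2453 in enterocytes, and this difference is what the sort selected. It was the only called gene of the 6 whose proteins were used to sort, of which Epcam read 5845 and 17882 against 14329 to 30352. Of 17 tested tuft cell markers, 9 were higher in EECs and none was higher in enterocytes, 6 of them also without either EEC library, with a median log2 fold change of 2.15. Dclk1 stood at 1783 and 3940 against 275, 173, 226, 89.0 and 162 (log2 fold change 3.95 ± 0.56), and Rgs13 at 230 and 561 against 5.85, 9.18, 15.0, 10.3 and 22.2 (log2 fold change 4.98 ± 0.47). Sh2d7, Kctd12 and Fyb also kept the call. Trpm5 and Gnat3, of the taste pathway, were called and lost the call without EEC 2, while Pou2f3, the tuft lineage factor, read 396 and 439 against 29.7 to 181 (adjusted p = 0.049) and Avil read 687 and 733 against 94.2 to 241 (adjusted p = 0.0114). The list summed to 9323 and 20180 in EECs, 998 to 2167 in enterocytes and 50214 to 135745 in the 5 tuft cell libraries. The part of tuft cells in the genes higher in EECs was not tested.

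Of 12 tested goblet and deep crypt secretory cell markers, 3 were higher in enterocytes and none was higher in EECs, with a median log2 fold change of -2.86. Sval1 stood at 9.04 and 2.43 normalized counts in EECs against 744, 628, 1029, 1271 and 2526 in enterocytes (log2 fold change -7.84 ± 1.21), also without either EEC library. Tff3 and Zg16 were called with log2 fold changes of -2.78 and -2.79 and lost the call without EEC 1. The mucin Muc2 read 24909 and 12773 against 64559 to 194498, and the granule proteins Clca1 and Fcgbp read 2164 and 9397, and 6378 and 32898, against 63655 to 219608 and 91575 to 235993. The groups did not overlap for these 3, and none was called (edgeR adjusted p = 0.12, 0.0303 and 0.0534). DESeq2 called all 3 higher in enterocytes (adjusted p = 7.87e-04, 3.53e-04 and 8.09e-05). Of the 12 markers, 8 were higher in enterocytes with DESeq2 and 7 with library totals. The list summed to 41236 and 65110 in EECs and 241079 to 756533 in enterocytes. It summed to 23643 to 38237 in stem cells and 98244 to 304380 in absorptive progenitors. In secretory progenitors and deep crypt secretory cells, sorted together, it was 905531 to 3544813, and in tuft cells 925203 to 1404250. The part of goblet cells in the genes higher in enterocytes was not tested.

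None of 16 immune and 7 endothelial markers was called, with median log2 fold changes of -0.18 and 0.53. The immune median turned to 0.29 with DESeq2's size factors and 0.18 with library totals, where all genes tested had 0.22 and 0.04. A mean of 50 normalized counts, which a call needs, was reached by 4 immune and 6 endothelial markers, with medians of 0.90 and 0.32. The rest could not be called. Immune markers summed to 3012 normalized counts in EEC 1 and 505 in EEC 2 against 498 to 1495 in enterocytes, with 4 and 10 of the 16 at 0 in EEC 1 and EEC 2. Of the defining markers, Cd79a had no count in either EEC library and Lyz2 none in EEC 1. Ptprc (Cd45), which the gate excluded, read 544 and 311 in EECs against 83.1 to 168 in enterocytes (adjusted p = 0.0658), and Csf1r read 551 and 0 against 59.3 to 238. Endothelial markers summed to 2047 and 886 against 480 to 1113, with Pecam1 (Cd31), also excluded by the gate, at 618 and 733 against 113 to 188 (adjusted p = 0.183). Of 15 stromal, muscle and enteric nerve or glia markers, 1 was called, Ret, at 1139 and 3974 in EECs against 107 to 307 in enterocytes (log2 fold change 3.65 ± 0.61), and the call was lost without EEC 2. This list, with a median of 0.41, summed to 5577 and 4485 in EECs and 932 to 2647 in enterocytes. Of its 15 genes, 6 reached the mean of 50. The sums of the 3 lists and of the background genes were each higher in EEC 1 than in every enterocyte library, and the part of such cells or of background in the called genes was not tested.

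The genes with the largest called differences were named by a fixed rule. In EECs they were Pcsk1n, Tph1, Chga, Chgb, Insm1, Hmgn3, Neurod1, Resp18, Vgf and Gsdma, a gasdermin gene, with log2 fold changes from 5.27 for Gsdma to 7.19 for Pcsk1n. The smallest adjusted p were those of Cplx2, Tbx3, Cacna2d1, Glis3 and Rundc3a. Tbx3, a T-box repressor, stood at 2000 and 8639 normalized counts in EECs against 443, 441, 274, 370 and 228 in enterocytes (log2 fold change 3.92 ± 0.35, adjusted p = 7.10e-09). Glis3, a zinc finger factor of endocrine cells, stood at 1737 and 5618 against 227 to 360 (log2 fold change 3.73 ± 0.34), and Rundc3a at 1586 and 6109 against 110 to 215 (log2 fold change 4.65 ± 0.44). Those 3 calls held without either EEC library.

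In enterocytes the 10 largest differences were Gcg and 9 genes with no count in either EEC library: Siva1, Vsig1, Hist1h2ae, Stk26, Tmem203, Gng11, Apip, Lipt2 and Gins1. By counting error alone, a count of 0 was taken to allow up to 3 counts over the EEC libraries. Enterocytes were then at least 43.1-fold higher for Siva1, an apoptosis regulator, and 13.3-fold for Gins1, a replication factor, the others lying between. Loss of transcripts before sequencing is not in these bounds. Of all genes tested, 1967 had no count in EEC 1 and 5595 had none in EEC 2. Levels of the 9 genes in enterocytes were low. Siva1 stood at 35.1, 76.9, 63.5, 143 and 170 normalized counts in Enterocyte 1 to 5, and Gins1 at 23.4, 52.8, 5.78, 33.1 and 36.0. Siva1, Hist1h2ae, Gng11 and Lipt2 were also called without either EEC library, and Hist1h2ae shares sequence with other histone genes, so its count is less certain.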

How the data were processed

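RNA-seq was done on 22 libraries of sorted mouse colon crypt cells. According to the labels the authors used STAR 2.5.2a and HTSeq 0.6.1p1 with the mm10 genome, and the deposited values are raw counts per gene for 24421 genes, made without regard to strand, so that overlapping antisense genes cannot be told apart. The other deposited tables, of splicing and polyadenylation against stem cells, were not used. Reads that HTSeq assigned to no gene were 64.5 to 89.7% of all reads in the 7 libraries compared and stayed out of library sizes.

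One model of 22 libraries with cell type as the only term was fitted with edgeR 4.0.16 in R 4.3.3 (filterByExpr, TMM factors, glmQLFit, glmQLFTest, 16 residual degrees of freedom), and EECs were contrasted with enterocytes. The thresholds for a call were an adjusted p of 0.01 and 50 normalized counts on average. Standard errors are the log2 fold change over the root of F. On simulated data, 81% of 100 genes changed 16-fold and 35% of 100 changed 4-fold were recovered over 22034 genes, with 1 unchanged gene called. Every simulated library was drawn with the spread per gene fitted over all 22 libraries. The real EEC 1 and EEC 2 correlated at a Spearman's rho of 0.696, against at least 0.921 among enterocyte libraries. The simulation therefore does not measure false calls in these data. With 5 and 2 libraries there are 21 arrangements, so an exact permutation test of a single value could not reach a p of 0.01 and none was run. Counting intervals cover counting error only (95%, exact Poisson).

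Named genes were those marked in 29 gene lists, the 10 largest called differences each way without overlap of the groups (predicted genes and background families left out) and the 5 smallest adjusted p each way. The lists, cell types and genes were chosen with earlier results of these data known. Alternatives were DESeq2 1.42.0, other scalings and filters, a fit of 7 libraries, thinned counts, a replicate block, and each library left out. No libraries were identical. A few listed genes are not reported by name here.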

Additional observations from a re-analysis of the deposited data

Results flagged for a closer look

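In 15 of 322 groups of 5 enterocyte values tested, the highest or lowest library lay past Dixon's 95% limit for the gap to its nearest neighbour as a share of the range. Chance alone gives about 1 in 20 such groups, and no explanation was tested.

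Enterocyte 1 was the high library for 7 genes, 6 of which EECs or enterochromaffin cells are known to use: Chga at 8561 normalized counts (the others 2327 to 3768), Neurod1 at 301 (132 to 180), Lmx1a at 241 (98.1 to 130), Nkx2-2 at 80.4 (at most 34.2), Syt13 at 241 (60.5 to 107) and Tac1 at 151 (53.9 to 62.7). The seventh was the lipase inhibitor Angptl4, at 136 (60.8 to 78.7). The groups tested were the named genes and the list sums, which hold many EEC genes. Genes of 1 library also do not vary independently, so 6 of 7 is a description and not a test.

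Enterocyte 4 was the high library for Slc6a4 at 497 (the others 190 to 237), Foxa2 at 843 (225 to 346), Pdgfa at 1403 (722 to 914), the glucose transporter Slc2a1 at 1879 (1207 to 1385) and the Wnt target Axin2 at 594 (260 to 332). Enterocyte 5 was the high library for B2m, the light chain of class I molecules, at 6249 (3100 to 3988) and for the summed goblet and deep crypt secretory cell markers at 756533 (241079 to 388126). Enterocyte 3 was the low library for Reg3g at 444 (820 to 941). In each of these genes and in the sum, the values are normalized counts.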

How the results depend on the processing

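The number of called genes depended on the test, the scaling and the EEC library. DESeq2's Wald test called 1866 genes, 918 higher in EECs and 948 higher in enterocytes, and included 97.9% of the 657 edgeR calls. DESeq2's size factors in edgeR gave 1259, 726 and 533, and moved the median of all genes tested from 0.02 to 0.22. Library totals gave 1329 in all with 835 higher in enterocytes. An adjusted p under 0.05 gave 1161, 638 and 523. A fit of the 7 libraries alone gave 214, 185 and 29. Leaving out 1 library at a time gave 509 to 1623 called genes, 159 to 1058 higher in EECs and 184 to 1464 higher in enterocytes. Without EEC 1 there were 1590 called genes and without EEC 2 there were 1623, and the share higher in EECs was then 66.5% and 9.80%.

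With the replicate block, the fit called 495 genes, 330 higher in EECs and 165 higher in enterocytes. Deviations from the group means correlated across genes at r = 0.300 for Enterocyte 1 with EEC 1 and r = -0.124 for Enterocyte 2 with EEC 2. With 2 EEC libraries, each r of EEC 2 is the negative of that of EEC 1. These values therefore cannot show whether libraries of the same number are paired. Without EEC 2 the sign of the log2 fold change turned for 31 of 293 named genes. The 8 given here were those with a call in the main fit or without EEC 2. For these 8, over the libraries left out, the log2 fold change ran from -0.15 to 3.01 for Gch1, from -3.40 to 1.14 for Car1, from -1.96 to 0.92 for Vil1, from -2.63 to 1.12 for Emp1, from -3.24 to 1.10 for Slc20a1, from -3.29 to 1.19 for Cyp2c55, from -3.97 to 1.04 for Aldh1a1 and from -3.15 to 1.14 for Papss2. The cause was not tested. Of the 83 called named genes, DESeq2 kept 82, library totals 77, thinned counts 81, the replicate block 69, the fit of 7 libraries 45, no EEC 1 75 and no EEC 2 51. The 6 named genes that lost the call with library totals were Gch1, Rims2, Gng4, Scn3a, Bmp2 and Cldn4. Some list members given in the text lie outside the 293 named genes. Of these, Syp, Syt11, Stxbp5l, Nefm, Galr1 and Alox5 were not called with library totals either. Respiratory chain genes higher in enterocytes, 3 of 78, became 30 with DESeq2, 12 with its size factors and 29 with library totals, where defence genes were 12, 10 and 10. With 2 EEC libraries of unlike depth, a gene that was not called may still differ.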

Other observations

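Genes of the Hoxb cluster on chromosome 11, which pattern the gut along its length, differed in both directions. They were in no list and were chosen after their values were seen. Hoxb3 stood at 119 and 1192 normalized counts in EEC 1 and EEC 2 against 107, 101, 70.5, 98.1 and 54.0 in Enterocyte 1 to 5 (log2 fold change 2.93 ± 0.51, edgeR adjusted p = 2.31e-04). Hoxb4 stood at 255 and 813 against 57.8 to 110 (log2 fold change 2.59 ± 0.50), and Hoxb8 at 517 and 423 against 57.8 to 200 (log2 fold change 1.70 ± 0.35). Hoxb8 was also called without either EEC library, while Hoxb3, Hoxb4 and Hoxb6 lost the call without EEC 2. Hoxb6 was also called, but EEC 1 at 204 lay below the enterocytes while EEC 2 stood at 1867. Hoxb13, the last gene of the cluster and a marker of the distal colon, was lower in EECs, at 268 and 451 normalized counts against 1307, 1797, 1449, 5614 and 2971 (log2 fold change -2.87 ± 0.65, adjusted p = 0.00420), and it lost its call without EEC 1. Hoxb1, Hoxb2, Hoxb5, Hoxb7 and Hoxb9 were not called.

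Further interferon-induced genes outside the lists were higher in enterocytes, again chosen after their values were seen. Ifi44 stood at 0 and 1.21 normalized counts in EECs against 77.5, 265, 240, 143 and 201 in enterocytes. Oasl2 stood at 291 and 263 against 904 to 2102 (log2 fold change -2.56 ± 0.49), and both were called without either EEC library. Ifit2, with a log2 fold change of -2.89, lost its call without EEC 2, and Irgm1, at 81.4 and 187 against 341 to 745, lost its call without EEC 1. Ifi44l was not called.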
